A study of Mus musculus with 8 samples.

Results

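The Egr, Nr4a and Klf early-response genes, together with Ier2, were followed in cells of the mouse periosteum, the sheath of connective tissue around bone. The group was a list of 10 symbols among the 32285 features of the count tables (Egr1, Egr2, Egr3, Nr4a1, Nr4a2, Nr4a3, Klf2, Klf4, Klf6 and Ier2), chosen by name, and each gene was counted apart. All 10 were present in both tables, and none was removed by a filter on low values, although a fold is called below only where a gene had at least 100 UMIs (unique molecular identifiers, the counted molecules) over both libraries in a cell class.

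Male C57BL/6J mice aged 16 weeks received either normal diet chow (ND) or high fat diet chow (HFD), the latter over 12 weeks, and the study asked how a diet that models type 2 diabetes with neuropathy alters periosteal cells. Left femurs and tibias were digested for 1.5 h with 3 mg/mL collagenase I and 4 mg/mL dispase II in both groups, and the released cells went into droplet-based single-cell RNA sequencing. The labels list 4 samples per diet, yet the counts came as 1 table per diet whose barcodes carry no mouse. All values therefore compare 2 pooled libraries: no test between diets could be made, and each interval (95%) covers counting error only, not the spread between mice. Intervals of levels and ratios take each UMI as independent, so they also leave out the spread between the cells of a class.

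Immediate-early genes are transcribed within minutes of a stimulus, without new protein synthesis, from promoters that signal-dependent factors already occupy. EGR proteins are zinc-finger factors that bind GC-rich sites, NR4A proteins are orphan nuclear receptors whose activity follows their abundance, and KLF2, KLF4 and KLF6 are Krüppel-like zinc-finger factors that bind GC and CACCC boxes. In lymphocytes and endothelium KLF2 is known for keeping cells quiescent and for answering blood flow, and in connective tissue EGR1 answers growth factors, mechanical load and injury.

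The bases before the transcription start are shown for 5 members because they hold most of the matches described next to them. RefSeq's promoter table (GRCm38.p6) was read for the members without the chromosome of Egr1, so Egr1 was not looked up. It gave 11 entries for 7 of the 10 members, and Egr3 and Ier2 had none. Only the 250 bases before each start were searched, on both strands, for TGACG, the half-site of the cAMP response element bound by CREB and ATF factors, for its full form TGACGTCA, which would also hold the half-site, for the EGR sites GCGTGGGCG and GCGGGGGCG, for AAAGGTCA, the site of NR4A receptors, and for the CArG box of SRF and the MEF2 box, both searched as A/T-rich consensus sequences. Matches are in capitals, the sequences run 5′ to 3′ on the strand of the gene, and bases that GENCODE M21 places in an exon were left out.
Nr4a1: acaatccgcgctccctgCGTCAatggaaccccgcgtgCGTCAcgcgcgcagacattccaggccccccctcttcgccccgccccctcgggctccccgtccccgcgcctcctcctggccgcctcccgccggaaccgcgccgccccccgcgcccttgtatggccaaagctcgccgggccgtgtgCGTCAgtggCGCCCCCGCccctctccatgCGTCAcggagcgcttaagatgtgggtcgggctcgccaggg
Nr4a2: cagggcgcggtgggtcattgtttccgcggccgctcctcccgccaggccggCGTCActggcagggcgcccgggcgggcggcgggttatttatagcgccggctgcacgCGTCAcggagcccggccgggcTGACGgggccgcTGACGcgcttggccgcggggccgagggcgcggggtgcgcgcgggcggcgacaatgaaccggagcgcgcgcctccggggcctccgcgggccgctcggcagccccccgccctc
Nr4a3: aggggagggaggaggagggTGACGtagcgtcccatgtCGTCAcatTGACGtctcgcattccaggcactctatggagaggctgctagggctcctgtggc
Klf2: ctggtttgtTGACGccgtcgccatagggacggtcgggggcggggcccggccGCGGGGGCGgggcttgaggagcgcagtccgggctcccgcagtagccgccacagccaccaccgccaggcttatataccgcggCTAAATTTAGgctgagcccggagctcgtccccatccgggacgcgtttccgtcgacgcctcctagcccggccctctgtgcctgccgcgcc
Egr2: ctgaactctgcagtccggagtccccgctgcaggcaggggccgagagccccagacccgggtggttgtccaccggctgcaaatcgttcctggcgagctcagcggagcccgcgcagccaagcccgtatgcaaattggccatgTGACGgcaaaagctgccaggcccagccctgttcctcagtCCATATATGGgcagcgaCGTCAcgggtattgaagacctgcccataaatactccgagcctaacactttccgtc
The stretches lie at chr15:101266596-101266845 (plus strand), chr2:57124004-57124253 (minus strand), chr4:48045055-48045152 (plus strand), chr8:72318812-72319032 (plus strand) and chr10:67537619-67537868 (plus strand), each before a RefSeq start of its gene. The Klf2 and Nr4a3 stretches end 29 and 152 bases short of that start, where a GENCODE exon begins, and positions are counted from the RefSeq start. Each of Nr4a1, Nr4a2 and Nr4a3 held 4 half-sites in its 250 bases, of which 3 of the 4 of Nr4a3 are in the 98 bases printed. Of the 32851 promoter entries of the genome, 17.8% held at least 1 half-site and 45 (0.137%) held 4 or more. The Klf2 stretch held a MEF2 box (CTAAATTTAG) from 118 to 109 bases before the RefSeq start, which 0.508% of all entries held, next to 1 half-site and 1 GCGGGGGCG (2.57% of entries). A CArG box (CCATATATGG) lay 72 to 63 bases before the chosen Egr2 start, and 1.47% of all entries held one. Egr2 alone of those 7 members had several entries, and the one printed was picked as the first by position of those with the most matches. The Egr2 entries at chr10:67537620-67537869 and chr10:67537680-67537929 held the same numbers of matches. Its entry at chr10:67537316-67537565 held a CArG box alone, and that at chr10:67535249-67535498 held no match. The share over all entries takes each entry as it is, so it is not a like measure for a picked entry. Klf4 had 1 half-site and 1 GCGGGGGCG, Klf6 had no match, and the full TGACGTCA, GCGTGGGCG and AAAGGTCA matched none of the 7 members. The number 4 was picked after the matches were seen, and a match is a stretch of letters, not a bound site.

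The ND library held 48558889 UMIs over 6314 barcodes and the HFD library 49940976 UMIs over 6636 barcodes. Barcodes with more than 500 and fewer than 8000 genes and under 20% mitochondrial UMIs left 6029 and 6224 cells, of which 14 barcodes were shared by the libraries. Clustering, with early-response genes kept out of the genes that shaped it, gave 26 clusters, of which 24 were named by their markers in 11 classes, and the unnamed ones held 186 and 149 cells. Although the labels name periosteum, neutrophil-like (39.8% and 38.8% of kept cells) and B cell-like cells (25.4% and 23.8%) were the largest classes, and mesenchymal-like cells made up 6.85% in ND and 10.99% in HFD. The median depth of the named classes lay between 3810.0 UMIs (B cell-like, HFD) and 34977.5 UMIs (hematopoietic progenitor-like, ND), and levels are given as UMIs per 1000000 UMIs of the class (UPM).

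Most early-response genes stood lower in the HFD library, class by class. Of the 83 gene and class pairs with at least 100 UMIs, 72 had a log2 ratio of HFD over ND below 0, while 39.4% (dendritic-like) to 62.7% (neutrophil-like) of all genes tested in a class did. Lower levels of at least 1.5-fold were found in 32 pairs and a higher level of that size in 1.

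Counts are given first for blood cells of the myeloid line. In neutrophil-like cells, 6 of the 10 members were at least 1.5-fold lower in HFD, while 4.42% of the 7647 genes tested in that class were. The hematopoietic progenitor-like class, whose leading genes were Elane, Prtn3 and Mpo, had 5 of 7 tested members lower, against 2.82% of all genes. For basophil/mast-like cells the count was 4 of 8, against 3.39%, and 1 of 8 was higher, against 3.02%. Macrophage/monocyte-like cells had 3 of 9 lower, against 2.53%, and 0 where the class was drawn at clustering resolution 0.25. Among dendritic-like cells it was 3 of 5, against 3.6%.

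Lymphoid and vascular classes also had members lower, and the mesenchymal-like class had none past 1.5-fold. B cell-like cells had 3 of 10 members lower (2.6% of all genes), T/NK-like cells 2 of 8 (2.37%), endothelial-like cells 4 of 7 (3.25%) and pericyte/smooth muscle-like cells 2 of 8 (4.73%). In mesenchymal-like cells 0 of 10 members passed 1.5-fold, against 2.73% of all genes, although 9 of the 10 ratios were below 0, as were 42.3% of all genes tested there. Erythroid-like cells had enough UMIs for Ier2 alone, which did not pass, while 5.6% of their genes did. The median log2 ratio of the members tested ran from -0.27 in T/NK-like to -1.05 in hematopoietic progenitor-like cells. The erythroid-like class, where most members had few UMIs, was left out of that range. The median of all genes tested stayed between -0.06 and 0.07 in every class. Over all 10 members, whatever their UMIs, the hematopoietic progenitor-like median was -1.39. That value took in Egr2, Egr3 and Nr4a3, which had too few UMIs in that class to be tested. The unnamed clusters had 2 of 7 members lower, against 8.34%, and 1 higher, against 9%. In the named classes other than basophil/mast-like cells, 0 members were at least 1.5-fold higher in HFD. Among all genes tested, 0.785% were higher by that much in neutrophil-like, 1.32% in hematopoietic progenitor-like, 1.36% in macrophage/monocyte-like, 1.37% in B cell-like and 1.65% in T/NK-like cells. The shares were 3.51% in endothelial-like, 3.52% in mesenchymal-like, 3.98% in pericyte/smooth muscle-like, 4.54% in dendritic-like and 4.83% in erythroid-like cells.

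**Figure D1:**
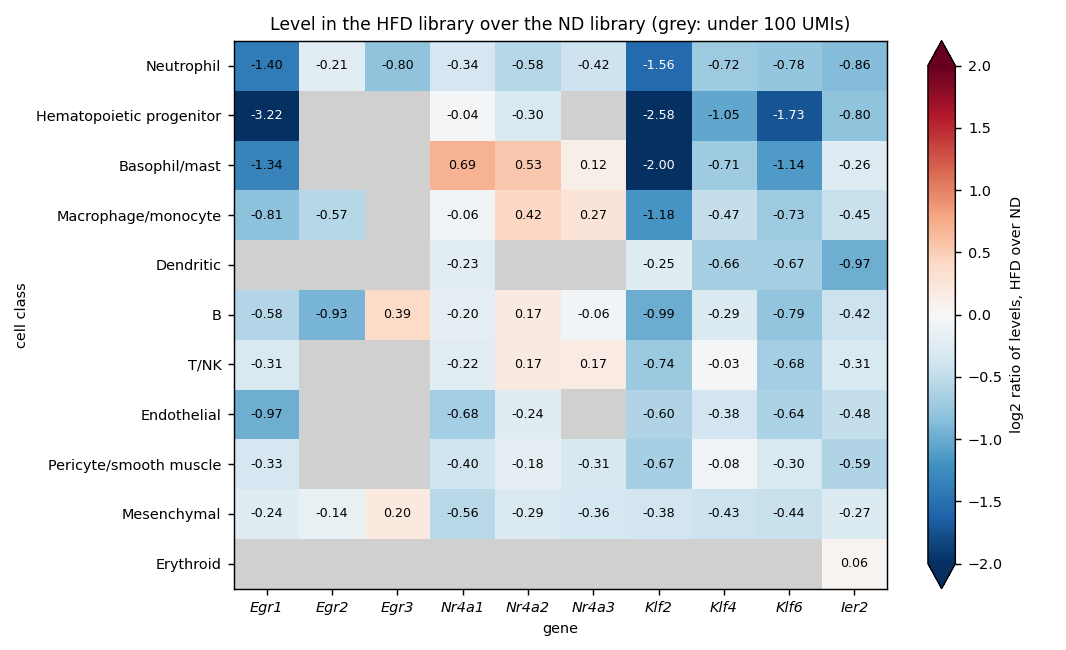
Heat map of the log2 ratio of levels, HFD over ND, for each of the 10 genes (columns) in each of the 11 cell classes (rows), where blue is lower in HFD, red is higher, and grey marks pairs with under 100 UMIs. The Klf2 and Klf6 columns are blue in every class with a value, whereas Nr4a2 is red in basophil/mast-like, macrophage/monocyte-like, B cell-like and T/NK-like cells.

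Klf2 was at least 1.5-fold lower in HFD in 8 of the 10 classes with at least 100 UMIs. In neutrophil-like cells its level was 1251 UPM in ND (19896 UMIs) and 425 UPM in HFD (7186 UMIs), a log2 ratio of -1.56 (interval -1.60 to -1.52). Hematopoietic progenitor-like cells went from 613 UPM in ND to 102 UPM in HFD (-2.58, interval -2.74 to -2.43), and basophil/mast-like cells from 609 to 152 UPM (-2.003, interval -2.20 to -1.81). Erythroid-like cells had 44 UMIs in ND and 11 in HFD, too few for a call.

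Among lymphocytes Klf2, which holds naive T and B cells in quiescence and steers their exit from tissue, was at 3875 UPM in ND and 1955 UPM in HFD in B cell-like cells (-0.99, interval -1.02 to -0.96). T/NK-like cells held 2646 UPM in ND and 1580.05 UPM in HFD (-0.74, interval -0.80 to -0.69), or a log2 ratio of -0.54 when each cell weighed the same. Neither pair of level intervals overlapped between the libraries. In macrophage/monocyte-like cells the levels were 1670.07 and 735 UPM (-1.18, interval -1.23 to -1.13), with a ratio of -0.55 where a coarser clustering at resolution 0.25 drew the class.

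Klf2 ratios were nearer to 0 in vascular, stromal and dendritic-like cells. Endothelial-like cells, where KLF2 answers shear stress, had the highest level of all classes in both libraries, 5152 UPM in ND and 3390.35 UPM in HFD (-0.60, interval -0.67 to -0.53). The endothelial-like ratio was -0.17 with each cell thinned to 1000 UMIs, -0.26 with each cell weighed alike and -0.53 without the 5% of cells most like doublets, so the call of 1.5-fold did not hold under those settings. Pericyte/smooth muscle-like cells held 2087 and 1311 UPM (-0.67, and -0.56 without those cells), mesenchymal-like cells 1188 and 915 UPM (-0.38, interval -0.43 to -0.33) and dendritic-like cells 1600 and 1346 UPM (-0.25, interval -0.39 to -0.10). The Klf2 interval lay below 0 in all 11 named classes, of which the erythroid-like class had too few UMIs for a call. Its 44 UMIs in ND came from 6 of 33 cells and its 11 in HFD from 4 of 26 cells. Those shares of cells, 18.2% and 15.4%, had overlapping intervals, so the erythroid-like ratio does not settle a direction.

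The order of the classes by Klf2 level kept the same head in both libraries, with endothelial-like, B cell-like and T/NK-like cells first and no overlap of neighbouring intervals among them. Over 4668 genes tested in 6 or more classes, 11 (0.236%) were at least 1.5-fold lower in HFD in 8 or more classes. Klf2 and Klf6 were 2 of those 11. The others, named because they passed this count, were Hspa1a, Hspa1b, Atf3, Jun, Rhob, Hsp90aa1, Gadd45g, Gm43305 and Dusp1, mostly genes of the heat-shock and immediate-early response.

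Klf6, a factor induced by injury in many tissues, was at least 1.5-fold lower in HFD in 8 of the 10 classes with at least 100 UMIs. Neutrophil-like cells held 680.1 UPM in ND and 396 UPM in HFD (-0.78, interval -0.82 to -0.74), and the hematopoietic progenitor-like class 312 and 94.01 UPM (-1.73, interval -1.90 to -1.56). In basophil/mast-like cells the levels were 665 and 301 UPM (-1.14, interval -1.29 to -0.996). B cell-like cells had 512 and 295 UPM (-0.79), T/NK-like cells 822 and 512 UPM (-0.68, and -0.55 with cells weighed alike), macrophage/monocyte-like cells 874 and 527 UPM (-0.73, and -0.44 at resolution 0.25) and dendritic-like cells 588 and 370.3 UPM (-0.67). The Klf6 ratios nearest to 0 were those of mesenchymal-like cells, with 552 and 407 UPM (-0.44, interval -0.51 to -0.36), and pericyte/smooth muscle-like cells, with 419 and 341 UPM (-0.30, interval -0.62 to 0.03). Endothelial-like cells, the highest class in both libraries, held 1077 and 693 UPM (-0.64), and the ratio was -0.22 when cells were thinned to 1000 UMIs and -0.27 with cells weighed alike.

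Klf4, which drives monocyte maturation and maintains vascular cells, was a gene of few classes. In ND it stood at 2287 UPM in endothelial-like, 2024 UPM in mesenchymal-like, 1186 UPM in macrophage/monocyte-like and 999.8 UPM in pericyte/smooth muscle-like cells, against 25.2 UPM in neutrophil-like cells. In HFD these levels were 1754, 1503, 857, 945 and 15.3 UPM. The log2 ratios were -0.38 in endothelial-like, -0.43 in mesenchymal-like, -0.47 in macrophage/monocyte-like and -0.08 in pericyte/smooth muscle-like cells, the last with an interval from -0.28 to 0.12. The hematopoietic progenitor-like class had 566 UMIs in ND and 177 in HFD, or 97.5 and 47.1 UPM (-1.05, interval -1.30 to -0.80). That call held under every alternative that gave a value. The share of such cells with a Klf4 UMI did not differ when cells were thinned to 2000 UMIs. It was 7.10% in ND (11 of 155, interval 3.60% to 12.3%) and 7.89% in HFD (9 of 114, interval 3.67% to 14.5%). The neutrophil-like ratio of -0.72 came from 401 and 258 UMIs and turned to 0.20 when cells were thinned to 1000 UMIs. That thinned value rested on only 29 cells with a Klf4 UMI in ND and 33 in HFD, too few to settle a direction. Without thinning the neutrophil-like ratio also differed in direction between clusters. It was -1.42 (198 and 89 UMIs) in the cluster led by Ltf, Ngp and Camp. In the cluster led by Ngp, Camp and Ltf it was 1.57, from only 9 and 39 UMIs. The calls in basophil/mast-like (74.8 and 45.6 UPM, -0.71) and dendritic-like cells (474 and 299.7 UPM, -0.66) also ended under an alternative, at -0.15 without the 5% of cells most like doublets and at -0.31 after thinning. The thinned dendritic-like value rested on 8 cells with a Klf4 UMI in ND and 7 in HFD. With each cell weighed alike the dendritic-like ratio was -0.29. T/NK-like cells held 150.0 UPM in ND and 147 UPM in HFD (-0.03, interval -0.24 to 0.19).

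Egr1 was highest in stromal and vascular cells. Mesenchymal-like cells held 2312 UPM in ND and 1964 UPM in HFD (-0.24, interval -0.27 to -0.20), pericyte/smooth muscle-like cells 2124 and 1688 UPM (-0.33, interval -0.47 to -0.19), and endothelial-like cells 1982 and 1009 UPM (-0.97, interval -1.09 to -0.85). Their ND intervals overlapped between neighbours, and no other named class came above 337 UPM in ND or 153 UPM in HFD. The unnamed clusters held 804 UPM in ND and 1270.37 UPM in HFD (0.66, interval 0.48 to 0.84), whereas the named classes with at least 100 UMIs had ratios below 0. Mesenchymal-like cells alone carried 52.8% of all Egr1 UMIs in ND and 68.1% in HFD.

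In blood cells Egr1 was low, with wide ratios in neutrophil-like, basophil/mast-like and hematopoietic progenitor-like cells and narrower ones in B cell-like and T/NK-like cells. Neutrophil-like cells had 184 UPM in ND and 69.6 UPM in HFD (-1.40, interval -1.50 to -1.30), and basophil/mast-like cells 337 and 133 UPM (-1.34, interval -1.56 to -1.13). The hematopoietic progenitor-like class had 424 UMIs in ND and 29 in HFD, or 73.0 and 7.72 UPM (-3.22, interval -3.84 to -2.70), the widest ratio of any member with at least 100 UMIs. Macrophage/monocyte-like cells had 253 and 144 UPM (-0.81), with ratios from -0.28 to -0.58 under both other clustering resolutions, thinning and equal weights for cells. B cell-like cells had 230 and 153 UPM (-0.58), and T/NK-like cells 114 and 91.6 UPM (-0.31, interval -0.58 to -0.05). In dendritic-like cells 76 UMIs in ND and 21 in HFD gave 166 and 33.0 UPM, which is under the minimum of 100 UMIs.

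Egr2 and Egr3 rested on few molecules, with 487 and 445 UMIs of Egr2 and 710 and 814 UMIs of Egr3 over all kept cells of ND and HFD. Egr2, known for myelination and for restraint of lymphocyte activation, stood highest in pericyte/smooth muscle-like cells at 37.3 UPM in ND and 53.7 UPM in HFD, with overlapping intervals, and in mesenchymal-like cells at 30.9 and 28.0 UPM (-0.14, interval -0.45 to 0.17). Its B cell-like levels of 8.57 and 4.46 UPM came from 66 and 34 UMIs (-0.93, interval -1.59 to -0.33). Egr3, an antigen-receptor response gene in lymphocytes, was at 34.8 UPM in ND and 45.6 UPM in HFD in B cell-like cells (0.39, interval 0.16 to 0.63), whereas neutrophil-like cells held 9.49 and 5.44 UPM (-0.80, interval -1.19 to -0.42). The Egr3 intervals of those classes lay on opposite sides of 0, a difference that was not tested over mice.

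The Nr4a genes had 1 call lower and 1 higher among the named classes, where Nr4a1 was tested in 10, Nr4a2 in 9 and Nr4a3 in 7. The lower call was in endothelial-like cells, where 3.25% of all genes tested were lower by that much. The higher call was in basophil/mast-like cells, where 3.02% were higher. At such shares a few calls would be found among any genes, so the counts do not set the Nr4a genes apart. Nr4a1, an NR4A member that antigen receptors and cytokines induce, was highest in pericyte/smooth muscle-like cells at 1639 UPM in ND and 1239.8 UPM in HFD (-0.40, interval -0.57 to -0.24). Macrophage/monocyte-like cells held 581 and 558 UPM (-0.06, interval -0.12 to 0.01), and the hematopoietic progenitor-like class, where Klf2 and Egr1 differed most, held 101 and 98.3 UPM (-0.04, interval -0.23 to 0.15). Mesenchymal-like cells had 629 and 428 UPM (-0.56, interval -0.63 to -0.48). Endothelial-like cells had 249.98 and 156 UPM (-0.68, interval -1.004 to -0.35), and basophil/mast-like cells 233 and 376.6 UPM (0.69, interval 0.52 to 0.87), the single pair of the named classes at least 1.5-fold higher in HFD. That last ratio was 0.52 when each cell weighed the same. Basophil/mast-like cells were also the class in which the 11 neutrophil markers summed to 6146 UPM in ND and 1179 UPM in HFD, and the part of such RNA in the ratios of that class was not tested.

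Nr4a2 was a gene of pericyte/smooth muscle-like, T/NK-like and macrophage/monocyte-like cells. The ND and HFD levels were 494 and 436 UPM, 289 and 326 UPM, and 171 and 228 UPM in that order. In macrophage/monocyte-like cells Nr4a2 was higher in HFD (0.42, interval 0.30 to 0.53), and the T/NK-like ratio was 0.17 (interval 0.02 to 0.32). Basophil/mast-like cells, with 60.0 and 86.9 UPM, also had a ratio above 0 (0.53, interval 0.18 to 0.89). Mesenchymal-like cells went the other way, with 144 UPM in ND and 117 UPM in HFD (-0.29, interval -0.44 to -0.14), as did neutrophil-like cells at 11.4 and 7.63 UPM (-0.58, interval -0.91 to -0.24). None of these Nr4a2 ratios reached 1.5-fold.

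Nr4a3 had its highest level in T/NK-like cells, at 323 UPM in ND and 363 UPM in HFD (0.17, interval 0.03 to 0.31). Pericyte/smooth muscle-like cells followed with 230 and 185 UPM (-0.31, interval -0.75 to 0.14), and neutrophil-like cells with 99.5 and 74.3 UPM (-0.42, interval -0.53 to -0.31). In macrophage/monocyte-like cells it was at 50.1 and 60.2 UPM (0.27, interval 0.05 to 0.48). Mesenchymal-like cells held 66.65 and 52.0 UPM (-0.36, interval -0.58 to -0.14). So the Nr4a2 and Nr4a3 intervals lay above 0 in macrophage/monocyte-like and T/NK-like cells taken as whole classes, where those of Klf2, Klf6, Egr1 and Ier2 lay below 0. The T/NK-like clusters went opposite ways for Nr4a3. Its ratio was 0.40 (interval 0.22 to 0.58) in the cluster led by Ccl5, Trbc2 and Cd3g. In the cluster led by Ccl5, Gzma and Xcl1 it was -0.24 (interval -0.47 to -0.008).

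Ier2, which encodes a small nuclear protein of the immediate-early response, was found in every class. Its ND levels ran from 405 UPM in B cell-like to 1243 UPM in endothelial-like cells in 10 classes, with 127 UPM in erythroid-like cells, and its HFD levels in the same 10 classes from 212 UPM in dendritic-like to 890 UPM in endothelial-like cells. Neutrophil-like cells had 513 and 282 UPM (-0.86, interval -0.91 to -0.81), and the hematopoietic progenitor-like class 487 and 280 UPM (-0.80, interval -0.91 to -0.70). Mesenchymal-like cells had 712 and 589 UPM (-0.27, interval -0.34 to -0.21). Erythroid-like cells held 127 and 132 UPM (0.06, interval -0.46 to 0.56).

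**Figure D2:**
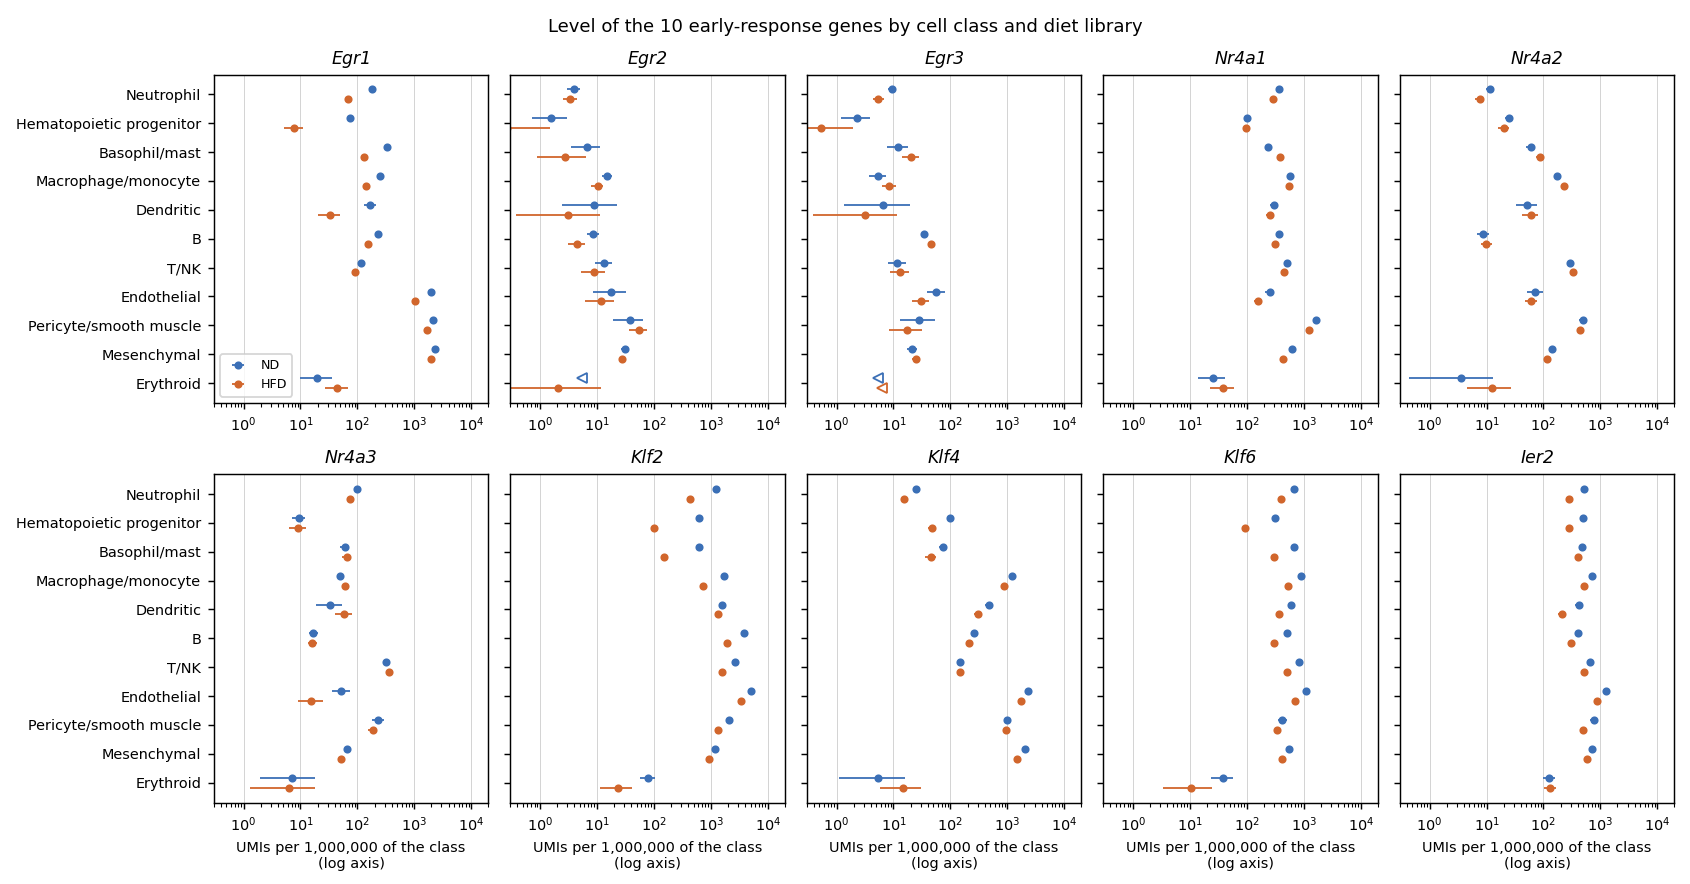
Level of each of the 10 genes (panels) as UMIs per 1000000 of the class on a log axis, in 11 cell classes (rows), with ND in blue, HFD in orange, points for the level and bars for exact Poisson intervals. Open triangles mark the limit of 3 counts where no UMI was found, and the Klf2 panel has orange left of blue in all 11 rows.

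Within a class the clusters did not all hold the same difference. Of the 24 named clusters, 23 had at least 100 Klf2 UMIs, and in 22 of them the interval of the ratio lay below 0. The exception was the T/NK-like cluster led by Ccl5, Gzma and Xcl1, with 2223 UPM in ND and 2231 UPM in HFD (0.00, interval -0.10 to 0.11), while the other T/NK-like cluster, led by Ccl5, Trbc2 and Cd3g, had 2809 and 1304 UPM (-1.11, interval -1.18 to -1.03). Ccl5, Xcl1, Nkg7 and Ms4a4b were among the leading genes of both clusters. Trbc1, Trbc2, Trac, Cd3d, Cd3e and Cd3g were among those of the cluster with the Klf2 difference only. Gzma, AW112010, Txk, Klra8, Klre1 and Klrk1 were among those of the cluster without it only. Klf6 in the same 2 clusters was at 665 and 559 UPM (-0.25) and at 883 and 491 UPM (-0.84).

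B cell-like clusters split by their leading genes. Those with precursor genes had low Klf2 in HFD: 4445 UPM in ND and 728 UPM in HFD in the cluster led by Vpreb3, Ebf1 and Cd79a (-2.61, interval -2.73 to -2.49), 1106 and 205 UPM in that led by Vpreb3, Igll1 and Vpreb1 (-2.43, interval -2.58 to -2.28), and 845 and 255 UPM in that led by Vpreb1, Igll1 and Vpreb3 (-1.73, interval -2.07 to -1.40). In the clusters led by Iglc2, Igkc and Iglc1 and by H2-Aa, H2-Eb1 and Cd74 the levels were 6206 and 3979.6 UPM (-0.64) and 3158 and 1996 UPM (-0.66). Klf6 in the Vpreb3, Ebf1 and Cd79a cluster was at 657 and 151 UPM (-2.12, interval -2.40 to -1.85). Egr1 was at 241 and 252 UPM in the Iglc2 cluster (0.06, interval -0.09 to 0.22) and at 537 and 287 UPM in the H2-Aa cluster (-0.90, interval -1.08 to -0.73).

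Macrophage/monocyte-like clusters differed in which member was high. The cluster led by Ms4a6c, F13a1 and S100a4 had Egr1 at 166 UPM in ND and 34.4 UPM in HFD (-2.27, interval -2.53 to -2.02) and Klf2 at 1695 and 540.5 UPM (-1.65). In the cluster led by C1qa, C1qb and C1qc, Egr1 was at 431 and 359 UPM (-0.26, interval -0.41 to -0.11) and Klf2 at 1362 and 941 UPM (-0.53). The third, led by Apoc2, Apoe and Ace, held the most Nr4a1 of the 3, with 1697 and 1456 UPM against 561 and 593 UPM in the Ms4a6c cluster and 448 and 273.5 UPM in the C1qa cluster. Nr4a2 was highest in the Ms4a6c cluster at 214 and 293 UPM (0.45, interval 0.33 to 0.58).

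Neutrophil-like clusters all had Klf2 at least 1.5-fold lower, while the mesenchymal-like clusters differed from each other. In the 6 neutrophil-like clusters the log2 ratios of Klf2 ran from -1.90 to -1.04, the narrowest in the cluster led by Il1b, Il1r2 and Acod1 at 1223 and 594 UPM. That cluster also held the most Nr4a3 of the class, 414 UPM in ND and 308 UPM in HFD. Of the 2 mesenchymal-like clusters, the one led by Col1a1, Sparc and Col1a2 had wider ratios than the one led by Dcn, Prg4 and Mgp: Klf2 was at 696 and 288 UPM (-1.27, interval -1.50 to -1.05) against 1246 and 1029 UPM (-0.28, interval -0.33 to -0.22). For Klf4 they were at 756 and 387 UPM (-0.97, interval -1.17 to -0.76) and at 2171 and 1706 UPM (-0.35, interval -0.39 to -0.31). In the Col1a1 cluster Ier2 (-0.74), Nr4a1 (-0.65) and Klf6 (-0.60) were also past 1.5-fold, which no member was over the whole class. That cluster held 60 cells in ND and 134 in HFD. The share of all genes past 1.5-fold was not taken for single clusters. Whether the members stood apart from other genes there is therefore not known.

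**Figure D3:**
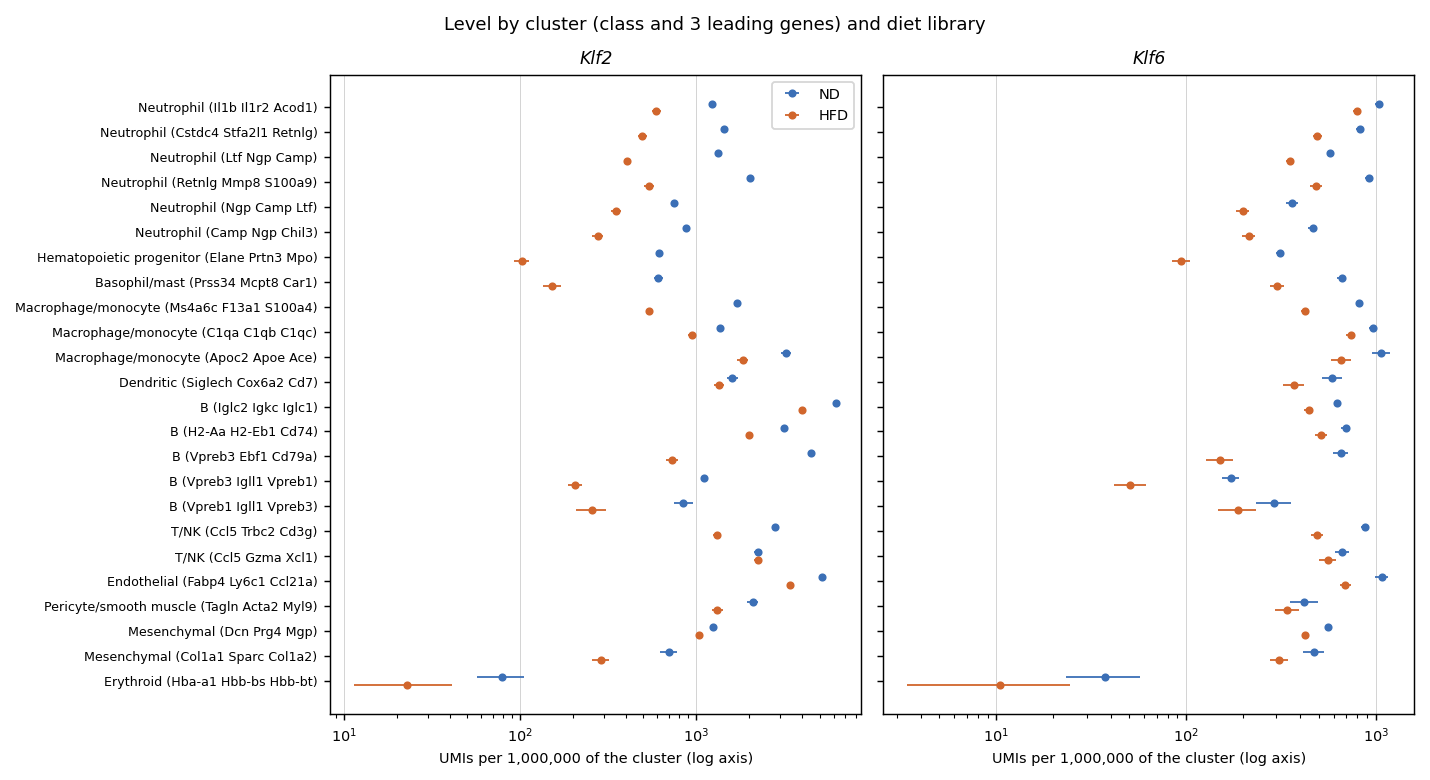
Klf2 (left) and Klf6 (right) levels in UMIs per 1000000 on a log axis for the 24 named clusters, each row giving the class and its 3 leading genes, with ND in blue, HFD in orange and exact Poisson intervals. The Klf2 points coincide in the T/NK-like cluster led by Ccl5, Gzma and Xcl1 and have their widest ratios in the B cell-like clusters led by Vpreb3 and the hematopoietic progenitor-like cluster.

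The share of cells with a molecule was compared after each cell was thinned to 1000 UMIs. Klf2 was found in 51.9% of neutrophil-like cells in ND (1244 of 2397) and 34.3% in HFD (829 of 2415), and in 69.4% and 52.9% of B cell-like cells. The hematopoietic progenitor-like class had 31.0% and 8.94%. Erythroid-like cells had it at the same depth in 6.06% in ND (2 of 33, interval 0.743% to 20.2%) and in 0 of 26 cells in HFD. The progenitor-like share in HFD lay inside that ND interval. With so few erythroid-like cells the interval is too wide to set a background for that share. In endothelial-like cells the shares were 82.5% and 82.1%, with intervals of 74.2% to 88.9% and 76.5% to 86.9%.

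Egr1 was found in 73.4% of mesenchymal-like cells in ND and 64.8% in HFD, in 57.0% and 38.8% of endothelial-like cells and in 17.7% and 9.36% of neutrophil-like cells. It was in 5.16% and 1.63% of the hematopoietic progenitor-like class. Those intervals overlapped the wide interval of erythroid-like cells in ND (3.03%, 1 of 33). Klf4 was in 70.5% and 59.6% of mesenchymal-like and 62.3% and 53.3% of macrophage/monocyte-like cells, beside 1.21% and 1.37% of neutrophil-like cells. Nr4a2 was in 24.2% and 26.5% of T/NK-like cells and 33.3% and 30.8% of pericyte/smooth muscle-like cells, beside 0.919% and 1.15% of B cell-like cells. Unthinned, Klf2 was found in 85.1% and 75.1% of neutrophil-like cells.

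**Figure D4:**
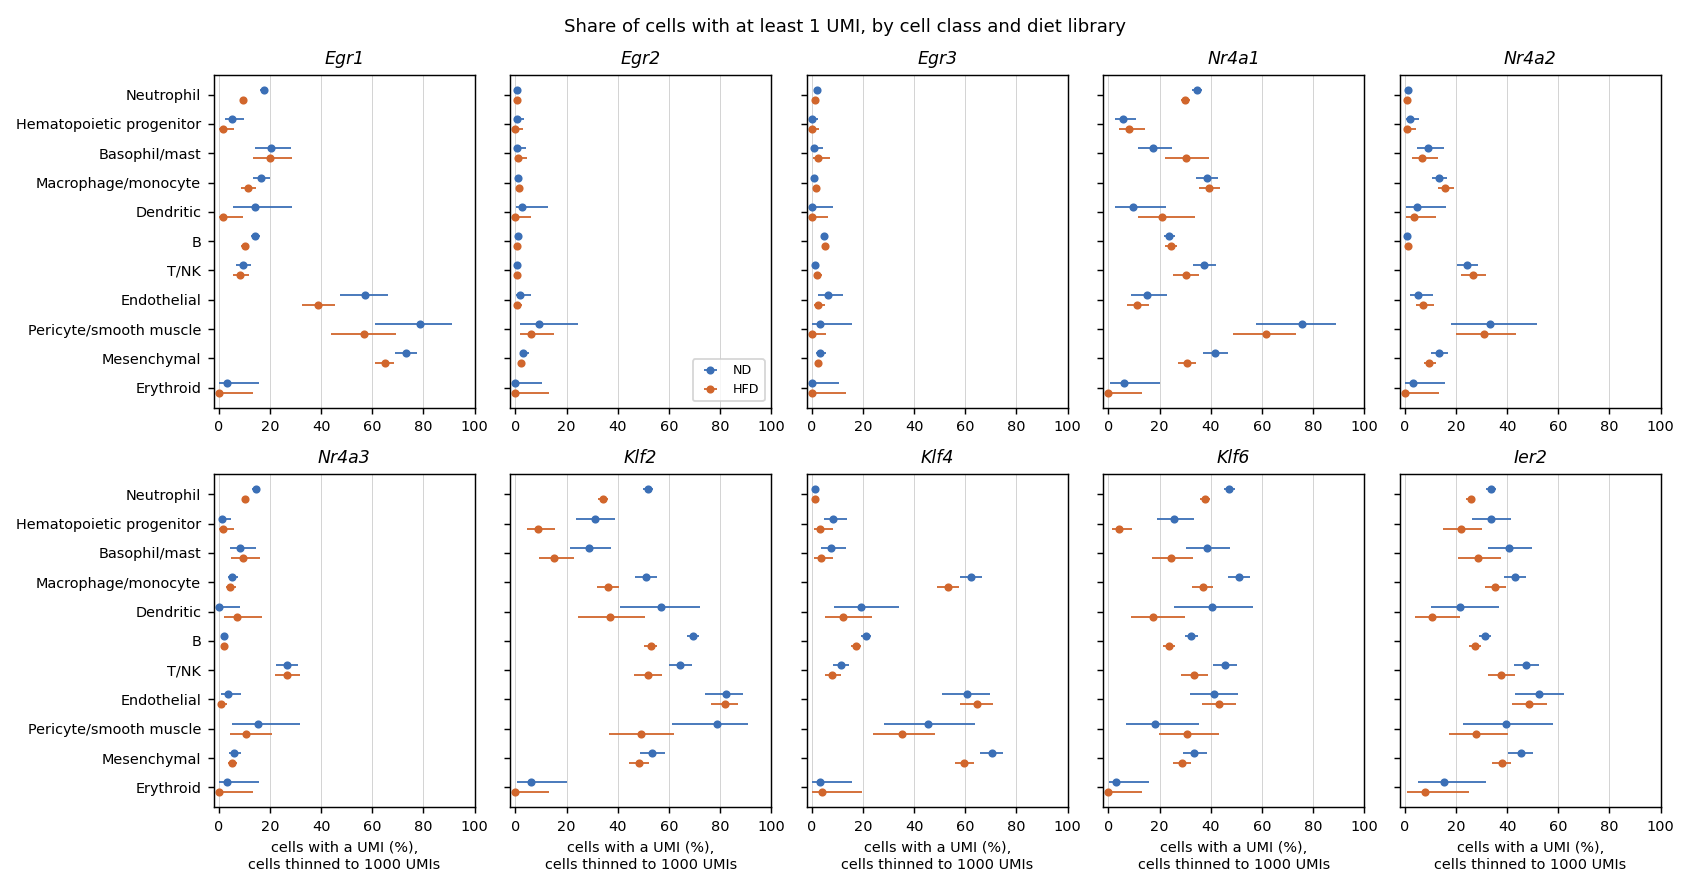
Percentage of cells with at least 1 UMI of each of the 10 genes (panels) in 11 cell classes (rows) after thinning to 1000 UMIs per cell, with ND in blue, HFD in orange and exact Clopper-Pearson intervals. Klf2 is at 82.5% and 82.1% in endothelial-like cells and at 51.9% and 34.3% in neutrophil-like cells.

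Members were found together in the same thinned cells somewhat more often than the product of their shares. The median ratio of observed to expected joint cells over the pairs with enough cells ran from 1.04 (T/NK-like, HFD) to 1.24 (B cell-like, HFD) in 6 classes, a description without a test in cells that share 2 libraries. In B cell-like cells Egr1 and Egr3 met in 23 cells in ND where 10.0 were expected and in 24 in HFD where 7.80 were expected. Pairs of different families could fall below 1. Egr1 and Nr4a2 met in 3 macrophage/monocyte-like cells in ND where 11.6 were expected and in 4 in HFD where 9.66 were expected, and Nr4a3 and Klf6 in 35 and 13 T/NK-like cells where 54.0 and 28.9 were expected. Those classes hold several clusters, of which the Nr4a2-rich Ms4a6c cluster had the least Egr1.

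Over all kept cells the ratio of Egr1 was nearer to 0 than with class weights held the same in both libraries. Each weight was the mean, over the libraries, of the share of all UMIs that the class held. Egr1 was at 445 UPM in ND and 415 UPM in HFD over all kept cells (-0.10, interval -0.13 to -0.07). With the shared weights it was at 507 and 366 UPM (-0.47). Mesenchymal-like cells, rich in Egr1, were 413 in ND and 684 in HFD. Klf2 was at 1753 and 882 UPM over all kept cells (-0.99) and at 1773 and 856 UPM with the shared weights (-1.05). Klf6 was at 626 and 383 UPM (-0.71) and at 633 and 374 UPM (-0.76) in the same order. At least 1.5-fold lower over all kept cells were 2 of 10 members, against 1.79% of the 13161 genes tested, and 0 members were higher, against 8.1%.

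Genes around the members were read from lists. The other immediate-early genes went the same way: 13 of 29 were at least 1.5-fold lower in neutrophil-like cells and 1 was higher, 13 of 27 and 0 in B cell-like, 12 of 25 and 0 in endothelial-like, and 2 of 31 and 1 in mesenchymal-like cells, where Ccn2 was at 554 UPM in ND and 1083 UPM in HFD (0.97). In neutrophil-like cells Jun was at 903 and 209 UPM (-2.11), Rhob at 391 and 108 UPM (-1.85) and Fos at 617 and 253 UPM (-1.29). Stress and dissociation genes outside transcription factors, many of them chaperones, differed beside the members: 7 of 12 were lower in neutrophil-like, 9 of 12 in hematopoietic progenitor-like, 7 of 12 in B cell-like, 4 of 12 in endothelial-like and 2 of 12 in mesenchymal-like cells, with 0 higher. Of all genes tested, 4.42% were at least 1.5-fold lower in neutrophil-like, 2.82% in hematopoietic progenitor-like and 2.6% in B cell-like cells. The share was 3.25% in endothelial-like and 2.73% in mesenchymal-like cells. Higher by that much were 0.785% in neutrophil-like and 3.52% in mesenchymal-like cells. Hspa1a, an inducible HSP70 gene, was at 1386 UPM in ND and 465 UPM in HFD in B cell-like cells (-1.57) and at 431 and 171 UPM in mesenchymal-like cells (-1.34). Whether handling of the 2 preparations had a part in the ratios of the members was not tested, and with 1 library per diet, preparation and diet cannot be told apart.

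Further lists had fewer calls. Of the regulators of early-response promoters, such as Srf, Creb1 and Mef2c, 0 of 17 were past 1.5-fold in B cell-like, 0 of 15 in neutrophil-like and 0 of 17 in mesenchymal-like cells, with median log2 ratios of 0.07, -0.06 and 0.03. Of all genes tested, 2.6% were lower and 1.37% higher in B cell-like, 4.42% and 0.785% in neutrophil-like, and 2.73% and 3.52% in mesenchymal-like cells. At those shares a list this short would hold few or no calls. Family relatives had 2 of 11 lower in neutrophil-like cells (Klf10 at -0.68 and Ier3 at -0.59, beside 4.42% of all genes), 2 of 11 in B cell-like cells (Ier3 at -0.84 and Ier5 at -0.60, beside 2.6%) and 0 of 13 in mesenchymal-like cells. The 10 mitochondrial genes, taken as a sign of RNA quality, had no call in these classes, and their summed level was 3198 UPM in ND and 3301 UPM in HFD in neutrophil-like and 15622 and 15697 UPM in mesenchymal-like cells.

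Among genes tied to KLF2 in lymphocytes and endothelium, 1 had a call in those classes, and it was higher in HFD. Of the lymphocyte quiescence and migration genes, 0 of 7 in B cell-like and 0 of 8 in T/NK-like cells were past 1.5-fold. Of all genes tested, 2.6% were lower and 1.37% higher by that much in B cell-like cells, and 2.37% and 1.65% in T/NK-like cells. In T/NK-like cells S1pr1, the receptor by which lymphocytes leave tissue, was at 249 and 201 UPM (-0.31, interval -0.49 to -0.14), and Ccr7 at 212 and 156 UPM (-0.44, interval -0.64 to -0.25). Among 9 endothelial flow-response genes, 0 were lower and 1 was higher in endothelial-like cells, beside 3.25% and 3.51% of all genes. At such shares, lists this short would hold few or no calls, so the counts do not set them apart from all genes. The gene called higher was Vcam1, an adhesion molecule, at 26.2 UPM in ND and 98.9 UPM in HFD (1.87, interval 1.13 to 2.80). Nos3, the endothelial nitric oxide synthase, was at 128 and 92.6 UPM (-0.47, interval -0.91 to -0.01). In endothelial-like cells the 9 pericyte/smooth muscle markers summed to 129 UPM in ND and 447 UPM in HFD. The part of such RNA in the Vcam1 ratio was not tested.

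**Figure D5:**
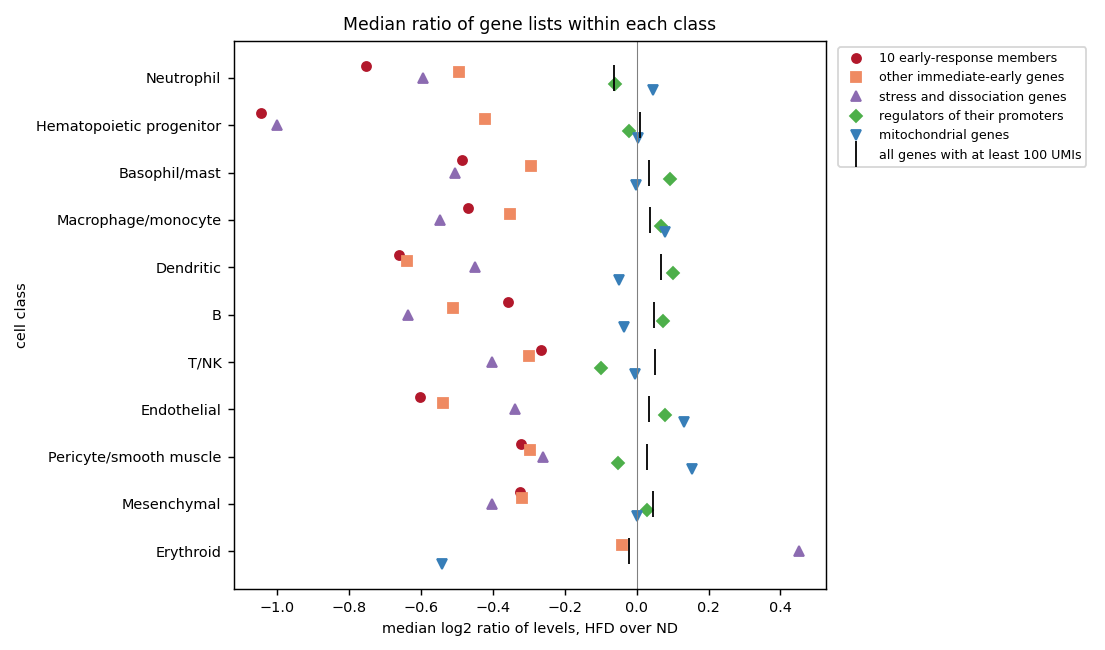
Median log2 ratio of levels, HFD over ND, of the genes with at least 100 UMIs in 5 gene lists (coloured symbols, drawn where a class has at least 3 such genes) and of all genes with at least 100 UMIs (black bars) in each of 11 cell classes. The members, the other immediate-early genes and the stress genes lie left of 0 in 10 classes, while the regulators and the mitochondrial genes lie between -0.10 and 0.15 in those 10.

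Markers of other cells moved with some classes. The 11 neutrophil markers summed to 5511 UPM in ND and 3120 UPM in HFD in T/NK-like cells, to 3129 and 2134 UPM in B cell-like cells, and to 4657 and 995 UPM in dendritic-like cells, with 9 to 11 of the 11 seen in each. In endothelial-like cells they summed to 17341 and 15090 UPM and in mesenchymal-like cells to 22423 and 14567 UPM. The 10 mesenchymal markers were at 42.8 and 112 UPM in B cell-like and at 21.4 and 1735 UPM in erythroid-like cells, where Egr1 had 11 and 21 UMIs. Their part in the ratios was not tested.

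The patterns of the members over the 22 class and diet sums were described by Pearson's r of log2(UPM + 10), among genes with at least 500 UMIs, and the points share libraries and cells. Nearest to Egr1 were Pttg1ip (0.93), Sertad1 (0.92) and Tmem63b (0.92), to Egr2 Maff (0.97), Errfi1 (0.96) and Ckb (0.92), and to Egr3 Mylip (0.91), Prkce (0.87) and Socs2 (0.87). Nr4a1 was nearest to Tiparp (0.91), Csrnp1 (0.91) and Ifrd1 (0.90), Nr4a2 to 1700025G04Rik, Anxa6 (0.87 each) and Dennd4c (0.85), and Nr4a3 to Pnrc1 (0.81), Coq10b and Zc3h12a (0.80 each). For Klf2 they were Ncoa3 (0.92), Eif4a2 (0.89) and Prdm2 (0.88), for Klf4 Clock (0.96), Dpysl2 and Ankrd40 (0.95 each), for Klf6 Tpm4, Skil and Tgoln1 (0.88 each) and for Ier2 Rhob (0.91), Sugt1 (0.90) and Junb (0.89). Between members r was highest for Egr1 with Egr2 (0.88), Klf2 with Klf6 (0.87) and Klf6 with Ier2 (0.83), and lowest for Nr4a3 with Klf4 (0.24).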

How the data were processed

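The authors made the UMI count tables with Cell Ranger 6.0.1 on mm10 (per the submitters' processing notes); the deposited values are raw UMI counts, 1 table per diet, in which the 4 labelled samples per diet are pooled and barcodes name no mouse. With 1 library per diet, no test, SD or p-value is given.

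Barcodes with more than 500 and fewer than 8000 genes and under 20% mitochondrial UMIs were kept, normalised with SCTransform under regression of cell cycle scores and clustered (30 components, resolution 0.5) in R 4.3.3 with Seurat 5.3.0, SeuratObject 5.2.0 and sctransform 0.4.2. Of 3000 variable genes, 51 early-response, related and stress genes were left out of the clustering. Clusters took a class from listed markers, and the limit on a second class (its score at most 0.666667 of the first) was set after the clusters were seen. Doublets were kept: Scrublet (scanpy 1.11.5) called 0.149% and 0.370% of cells, too few for its calls to be relied on, and removal of the 5% highest scores was added as an alternative after seeing the data.

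Python 3.11.15 with numpy 2.4.6, scipy 1.17.1 and pandas 2.3.3 summed UMIs per class, and matplotlib 3.10.9 drew the plots. Levels have exact Poisson intervals, ratios (0.5 added to each count) exact conditional binomial intervals and shares exact Clopper-Pearson intervals, all at 95% and for counting error only. A fold was called at 1.5 with at least 100 UMIs over both libraries. The code was tested on simulated data: in the neutrophil-like comparison (7658 genes) it recovered 100% of 200 changed genes, and 95.5% of intervals held the true ratio. Of unchanged genes it called 0.469% there, 0.728% in the mesenchymal-like and 2.28% in the pericyte/smooth muscle-like comparison (1295 genes). In the last, 94.8% of intervals held the true ratio. These shares are for simulated data only.

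The text names all 10 members, the 3 genes most like each over the 22 sums, and of each other list at most the 4 largest ratios in a class. The members and lists were chosen with earlier results of these data known. Alternatives were thinning to 1000 UMIs, equal weights for cells, another scaling, other clusterings, a mitochondrial limit of 10%, doublet removal, other minimums and added counts.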

Additional observations from a re-analysis of the deposited data

Results flagged for a closer look

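Egr3 had ratios on opposite sides of 0 in different classes, at -0.80 in neutrophil-like and 0.39 in B cell-like cells, with counting intervals that excluded 0 in both. Nr4a1 did the same, at -0.68 in endothelial-like and 0.69 in basophil/mast-like cells. These pairs are the lowest and highest classes of each gene, and the differences between classes were not tested, because each diet is 1 library. Barcodes outside the filter (285 in ND and 412 in HFD) also held member UMIs: the 10 genes summed to 2221.6 UPM in ND and 1978.88 UPM in HFD there, against 4434.2 and 3039.57 UPM in kept cells.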

How the results depend on the processing

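Of the 33 called ratios, 310 of 311 alternative values kept the direction, and 23 values in 13 results came under 1.5-fold. The exception in direction was Klf4 in neutrophil-like cells, at 0.20 after thinning to 1000 UMIs. It came from only 29 cells with a Klf4 UMI in ND and 33 in HFD. The cause was not tested. No paired analysis was possible because the columns carry no replicate number, and leaving out replicates was not possible for the same reason.

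Thinning to 1000 UMIs gave a median of the 10 members of -0.24 in B cell-like and macrophage/monocyte-like and -0.66 in pericyte/smooth muscle-like cells, and left 0 members lower in dendritic-like, 1 in endothelial-like and 1 in hematopoietic progenitor-like cells; it leaves fewer UMIs to reach the minimum of 100. Weighing cells alike gave a median of -0.22 in B cell-like cells and 2 members lower in endothelial-like, 1 in mesenchymal-like and 0 in T/NK-like cells. Clustering with all variable genes gave medians of -1.08 in basophil/mast-like, -1.91 in erythroid-like and -0.53 in macrophage/monocyte-like cells, and 1 member higher in the last. Resolution 0.25 left 0 members lower and resolution 1 gave 1 higher in macrophage/monocyte-like cells. Without the 5% of cells most like doublets, 2 members were higher in basophil/mast-like cells and 1 was lower in both mesenchymal-like and pericyte/smooth muscle-like cells. A mitochondrial limit of 10% left 1 lower in pericyte/smooth muscle-like cells, and scaling by the median of ratios gave 1 lower in mesenchymal-like cells. The share of all genes called under each of these settings is not given, so these counts have no background beside them.

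A minimum of 1 UMI gave 6 members lower in dendritic-like, 7 in endothelial-like and 2 in erythroid-like cells, and 2 higher in basophil/mast-like, 1 in dendritic-like, 4 in erythroid-like and 1 in macrophage/monocyte-like cells. A minimum of 20 UMIs gave 7 lower in endothelial-like and 2 in erythroid-like cells, and 2 higher in basophil/mast-like and 1 each in dendritic-like, erythroid-like and macrophage/monocyte-like cells. Lower minimums let in genes with few UMIs, whose ratios vary most by counting error. The share of all genes called at these minimums is not given, so the larger counts cannot be set against it. Depth limits Egr2, Egr3 and the smaller classes most.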
